A study of Homo sapiens with 2 samples.

Results

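The promoters of the cytoplasmic ribosomal protein genes were examined in lists of promoter contacts of K562, an established human chronic myelogenous leukaemia line that carries the BCR-ABL1 fusion kinase. The genes were taken by symbol: protein-coding genes that begin with RPL (large subunit) or RPS (small subunit) and a digit, without RPS6K genes and without paralogs ending in L, L1 or L2, and with an end on a captured fragment of either list. Of 79 symbols, 66 met the rule, among 13721 protein-coding genes with a captured fragment. They comprised 40 large subunit and 26 small subunit genes on 80 fragments, and the other 13 symbols, such as RPL13, RPS9 and RPS18, are not analysed here. The data hold contacts and no expression, so the label rests on the symbols. The rule also took RPS19BP1, which encodes a protein that binds RPS19 and no ribosomal protein, and the readthrough genes RPL36A-HNRNPH2 and RPL17-C18orf32.

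One group of cells had received the vehicle DMSO and the other 100 nM ponatinib, an ABL kinase inhibitor, in both cases for 24 h, and equal numbers of cells were harvested. Chromatin was crosslinked, cut with HindIII and ligated, and RNA probes then enriched the ligation products of promoter fragments. There was 1 library per treatment. The difference between the treatments therefore has no replicate check and no test, and every interval below covers counting error only.

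The ribosome joins a large and a small subunit, each built of ribosomal RNA and, for most of its proteins, a single copy, so cells need these proteins in matched amounts. Their messages typically begin with a C and a run of pyrimidines, the terminal oligopyrimidine tract, through which mTOR signalling controls their translation. The genes lie scattered over nearly all chromosomes, are transcribed strongly in growing cells, and often carry small nucleolar RNA genes in their introns. Loss of a single copy of several of them, RPS19, RPS26, RPS24, RPL5 and RPL11 among them, causes Diamond-Blackfan anaemia, a failure of red cell production.

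Promoter sequences were read from the RefSeq table of GRCh38.p14 for the 53 members it lists, in windows of 300 bases with 250 before the transcription start. RPL23A, RPL30, RPL7, RPS2, RPS20, RPL5, RPS15A, RPL23 and RPS19BP1 were among those with no entry. Shown here are 75 bases around the start, 60 of them before it, for RPS27, RPS25 and RPL41, which had many contacts, for RPL38 and RPS24, whose numbers differed between the lists, and for RPS26, RPL4 and RPL11, where the start in the table is not followed by such a tract. Capitals mark the C at the start and the unbroken run of pyrimidines after it, and all are written in the direction of transcription.
RPS27 (chr1:153990702-153990776, plus strand): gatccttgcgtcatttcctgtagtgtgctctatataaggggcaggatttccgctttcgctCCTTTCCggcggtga
RPS25 (chr11:119018329-119018403, minus strand): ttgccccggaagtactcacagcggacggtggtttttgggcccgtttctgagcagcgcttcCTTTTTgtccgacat
RPL41 (chr12:56116573-56116647, plus strand): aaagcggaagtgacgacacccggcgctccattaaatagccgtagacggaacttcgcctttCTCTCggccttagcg
RPL38 (chr17:74203618-74203692, plus strand): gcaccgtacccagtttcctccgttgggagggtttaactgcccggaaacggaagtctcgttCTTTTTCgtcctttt
RPS24 (chr10:78033803-78033877, plus strand): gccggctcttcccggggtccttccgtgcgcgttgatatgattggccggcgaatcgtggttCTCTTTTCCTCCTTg
RPS26 (chr12:56041858-56041932, plus strand): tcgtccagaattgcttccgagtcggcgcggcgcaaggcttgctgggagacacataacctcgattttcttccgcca
RPL4 (chr15:66504841-66504915, minus strand): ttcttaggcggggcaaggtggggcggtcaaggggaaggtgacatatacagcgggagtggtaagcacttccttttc
RPL11 (chr1:23691719-23691793, plus strand): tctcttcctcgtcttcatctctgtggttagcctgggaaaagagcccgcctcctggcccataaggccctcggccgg

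A C at the start with at least 4 pyrimidines after it was found in 35 of 53 member promoters, or 66.0% (exact binomial 95% interval 51.7 to 78.5). It was found in 694 of 15790 other protein-coding promoters, or 4.40%, and in 4.60% of all of them. RPL36A and its readthrough gene have the same start, as do RPL17 and its readthrough gene. Each gene was counted, so the 53 windows are not all distinct. The tract was in 22 of 34 large and 13 of 19 small subunit promoters. In the windows above the run was 7 bases long in RPS27 and RPL38, 6 in RPS25, 5 in RPL41 and 14 in RPS24.

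Short motifs were searched on both strands of the whole window. CCGGAAG, the core bound by ETS factors, was in 17 of 53 member promoters (32.1%) and in 14.2% of all promoters. AAGATGG, a YY1 core, was in 8 (15.1%) beside 6.40% of all. TATAAA was in 4 (7.55%, all promoters 9.63%), the E-box CACGTG in 3 (5.66%, all 8.88%) and the HindIII site AAGCTT in 1 (1.89%, all 5.19%). CCGGAAG ends in the letters with which AAGATGG and AAGCTT begin, so such matches can overlap. The median GC content was 58.7% in member and 62.7% in other promoters. A match describes the letters of the window and no binding.

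The 35 members with the tract had 252 interactions in the DMSO list and 295 in the ponatinib list, and 19 of them had more, 7 fewer and 9 equal numbers with ponatinib. The 18 members without it had 139 and 154, with 11 more, 4 fewer and 3 equal. Among all 13721 genes with a captured fragment 48.0% had more and 37.3% had fewer.

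The authors' lists held 84049 interactions in DMSO and 91305 in ponatinib, with scores from 5 upward. Reads behind the interactions are not recorded in the lists, and the depth of the libraries is therefore unknown. The ponatinib list was 1.09 times as long, and this ratio is the background for numbers below that use neither a higher score threshold nor lists of equal length. Of the 80 member fragments, 74 were captured fragments with an interaction in the DMSO list and 77 in the ponatinib list. On 38 of them no other protein-coding gene had an end, while 39 members shared a fragment with another gene, so that contacts of such a fragment cannot be assigned to the ribosomal protein gene alone.

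Ribosomal protein gene fragments took part in 518 interactions of the DMSO list and 605 of the ponatinib list, a ratio of 1.17 (95% interval 1.04 to 1.32). The ratio for fragments of all other protein-coding genes was 1.09 (1.07 to 1.10), inside that interval. With lists of equal length the members' ratio was 1.07 (0.947 to 1.21), on fragments with no other gene's end 1.15 (0.964 to 1.38) and on fragments that hold the start 1.15 (0.984 to 1.33), each interval holding 1. The intervals on these kinds of fragments also held 1.09, while lists of equal length have a ratio of 1 by construction. The median fragment had 5 interactions in DMSO and 6 in ponatinib, beside 4 and 4 for other gene fragments. Member fragments were also longer, with a median of 9.28 kb against 7.15 kb, and this part of the difference in level was not tested.

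Large subunit genes had 318 and 359 interactions, a ratio of 1.13 (0.968 to 1.32). Small subunit genes had 203 and 249, a ratio of 1.23 (1.01 to 1.48). The share of interactions in the ponatinib list differed between the subunits by -2.06 percentage points, large minus small, with an interval of -7.95 to 3.87 that holds 0. The small subunit ratio rested in part on RPS27: without it the ratio was 1.18 (0.961 to 1.44). Without RPS26, whose numbers go the other way, it was 1.39 (1.12 to 1.71), and with lists of equal length 1.12 (0.926 to 1.36). The order of the subunits turned on fragments with no other gene's end (large 1.22, 0.935 to 1.60, and small 1.10, 0.862 to 1.40) and on fragments that hold the start (1.16, 0.939 to 1.43, and 1.13, 0.904 to 1.41).

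Gene by gene, 40 of 66 members had more interactions with ponatinib, 14 had fewer and 12 had equal numbers. Over all genes the shares were the 48.0% and 37.3% given above. The median log2 ratio of the members, taken as log2((ponatinib + 1)/(DMSO + 1)), was 0.24, beside 0 for all genes. It was 0.22 for large subunit genes, of which 22 had more and 9 fewer, and 0.32 for small subunit genes, of which 18 had more and 5 fewer. Most of these differences were small in number, as the plot of interactions by gene shows.

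**Figure D1:**
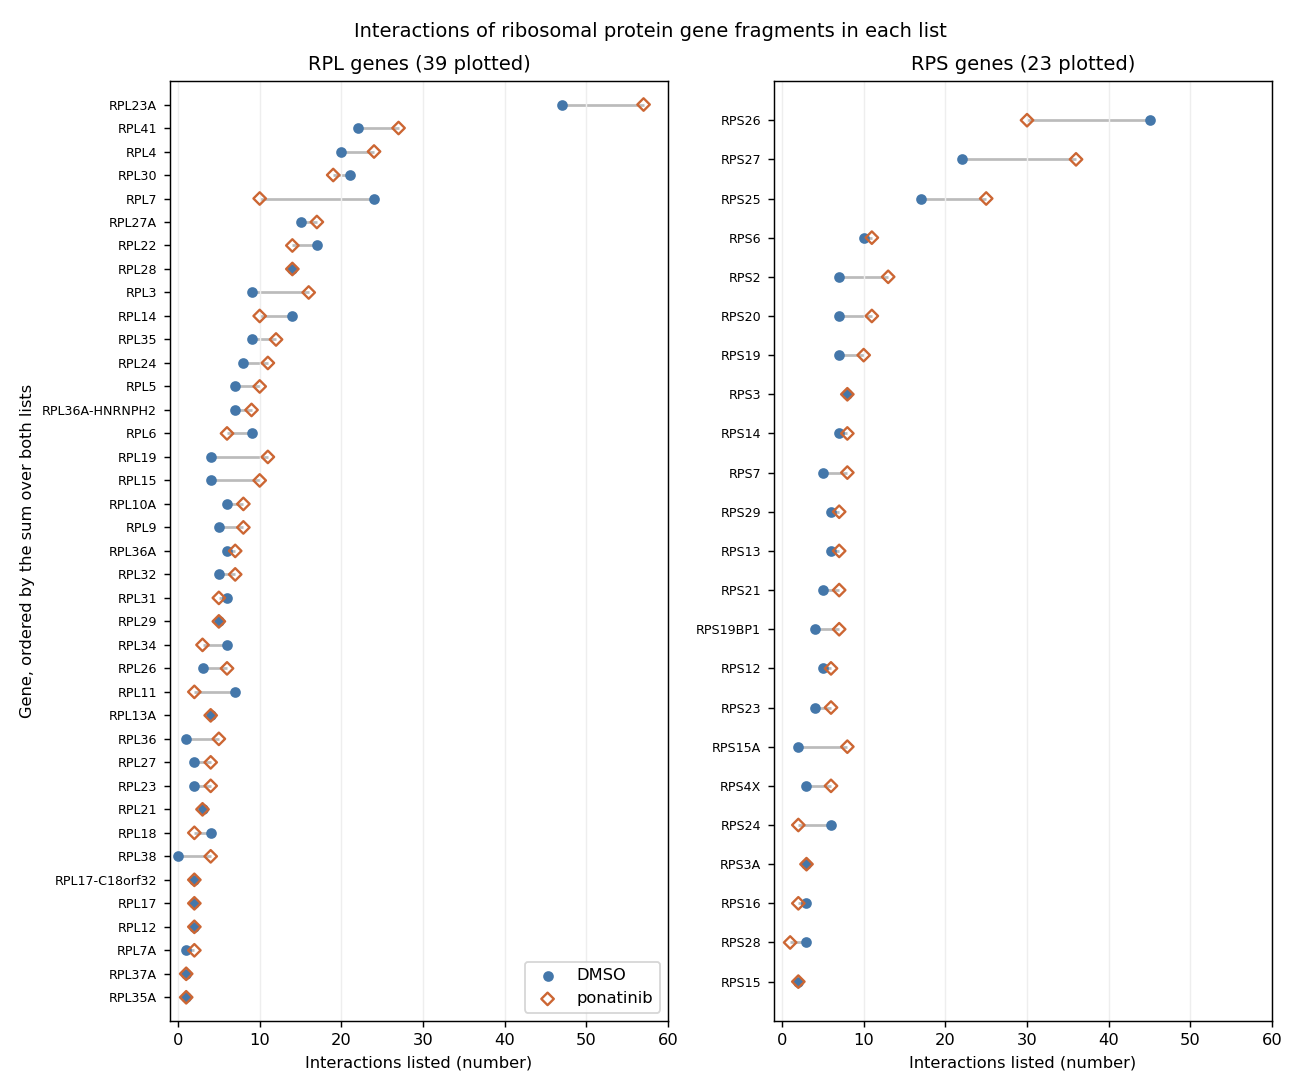
Number of interactions of 62 of the 66 genes in the DMSO list (filled circles) and the ponatinib list (open diamonds), large subunit genes on the left and small subunit genes on the right, ordered by the sum over both lists. RPL23A (47 and 57) and RPS26 (45 and 30) lie far to the right, while most genes have fewer than 20 in each list.

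Interactions were unevenly spread: 17 members with at least 20 over both lists held 681 of the 1146 interactions counted per gene, while 10 members had fewer than 5. Of the 56 members with at least 5, at least 2-fold more interactions were listed with ponatinib for 5 and at least 2-fold fewer for 3. Over the 9787 genes with at least 5, the same thresholds were passed by 9.92% and 6.26%, so the members' counts are near the background in both directions. The histogram of log2 ratios has its median at 0.28 for these 56 members and at 0.08 for the 9787 genes.

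**Figure D2:**
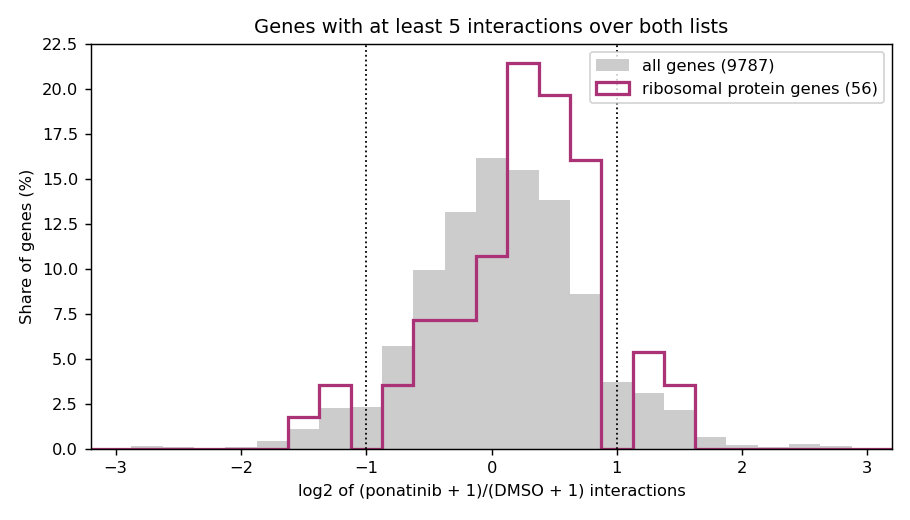
Distribution of log2((ponatinib + 1)/(DMSO + 1)) over the 9787 genes that had 5 or more interactions in all (grey) and over the 56 ribosomal protein genes among them (outline), as percent of genes. Dotted lines mark 2-fold in each direction; the median was 0.08 for all genes and 0.28 for ribosomal protein genes.

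Of the 5 members past the upper threshold, 4 encode large subunit proteins. RPL15 had 4 interactions in DMSO and 10 in ponatinib, and its partners on the side of higher coordinates, 258 to 779 kb away, numbered 1 and 7. Of these, 2 lay in THRB, a thyroid hormone receptor gene, both in the ponatinib list only. RPL19, on a fragment with an end of CACNB1, had 4 and 11, with 1 and 3 in CDK12, a kinase of RNA polymerase II. The promoter of ERBB2, a receptor tyrosine kinase, was a partner of RPL19 in the ponatinib list only (score 8.05). RPL36 had 1 and 5, on a fragment that also holds ends of HSD11B1L, LONP1 and MICOS13. The small subunit gene RPS15A, on a fragment with ARL6IP1, had 2 and 8, with no pair in both lists. RPL38, needed in mice for translation of a subset of Hox messages, had 0 and 4 and so was under the minimum of 5.

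Of the 3 members past the lower threshold, RPL7 is described with the loci below. RPL11, which with RPL5 binds MDM2 when ribosome assembly is disturbed, had 7 interactions in DMSO and 2 in ponatinib on a fragment with no other gene's end (chr1:23689933-23694024). Its DMSO partners included the promoters of ASAP3 (score 11.32), ID3 (5.86), an inhibitor of basic helix-loop-helix factors, PITHD1 (7.85) and ELOA (6.52), an elongation factor subunit. ELOA alone was in both lists, with a ponatinib score of 5.8. The ponatinib share of RPL11's 9 interactions was 22.2% with an interval of 2.81 to 60.01, which holds the 52.1% of the whole lists.

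RPS24, on a fragment with POLR3A, had 6 and 2. All were 935 to 1381 kb away on the side of higher coordinates, none at a captured fragment, and 3 lay in ZMIZ1, a transcriptional coregulator gene. For RPL5, the partner of RPL11, the numbers were 7 and 10. The opposite order of RPL5 and RPL11 rests on fewer than 20 interactions each.

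Interactions were divided by partner: a promoter partner was a fragment captured in either list, any other partner was called distal. In DMSO 229 of 518 member interactions had a promoter partner, or 44.2% (39.9 to 48.6), and in ponatinib 256 of 605, or 42.3% (38.3 to 46.4). The lists differed by -1.89 percentage points, ponatinib minus DMSO (-7.69 to 3.90). The partners comprised 766 fragments other than members' own, 283 of them captured, and 328 protein-coding genes had an end on these.

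Small subunit genes had the higher share of promoter partners in both lists. It was 53.7% (109 of 203, 46.6 to 60.7) in DMSO and 50.2% (125 of 249, 43.8 to 56.6) in ponatinib. For large subunit genes it was 38.7% (123 of 318, 33.3 to 44.3) and 37.3% (134 of 359, 32.3 to 42.6). Large minus small, the difference was -15.0 points (-23.5 to -6.25) in DMSO and -12.9 points (-20.7 to -4.86) in ponatinib. Leaving out any 1 of the 66 members kept it between -18.6 and -13.5 points in DMSO and between -16.8 and -9.71 points in ponatinib. Every one of these intervals excluded 0. They treat interactions as independent, although RPS26 alone gave 45 of the 203 small subunit interactions in DMSO, so they are too narrow. Leaving out single members does not measure the spread between genes. On fragments that hold a transcription start from the promoter table, however, the difference was -6.26 points (-16.9 to 4.56) and -4.24 points (-14.2 to 5.81), and both intervals held 0. These leave out members without an entry, RPL23A among them, and fragments of other members that do not hold the start, as at RPL4 and RPL41. Why the difference was smaller there was not tested.

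Against other genes, each pair was counted once for every fragment of the group at its ends, because a pair between 2 promoters of a large group would otherwise count once for both. Counted so, 44.7% of member interactions in DMSO and 42.8% in ponatinib had a promoter partner, beside 33.6% and 33.0% for other gene fragments. The differences were 11.1 points (6.93 to 15.4) and 9.81 points (5.92 to 13.8). On fragments with a known start in both groups they were 13.4 and 10.9 points. Leaving out any single member kept them within 9.32 to 12.6 and 7.84 to 11.5 points, lowest without RPL41 and highest without RPL23A, and each interval excluded 0. Neighbouring fragments are not independent, so these intervals are too narrow. Captured fragments within 500 kb had a median of 12 around members (quartiles 8 and 20.5) and of 11 around other gene fragments (quartiles 6 and 17). The part of this density in the difference in promoter partners was not tested.

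**Figure D3:**
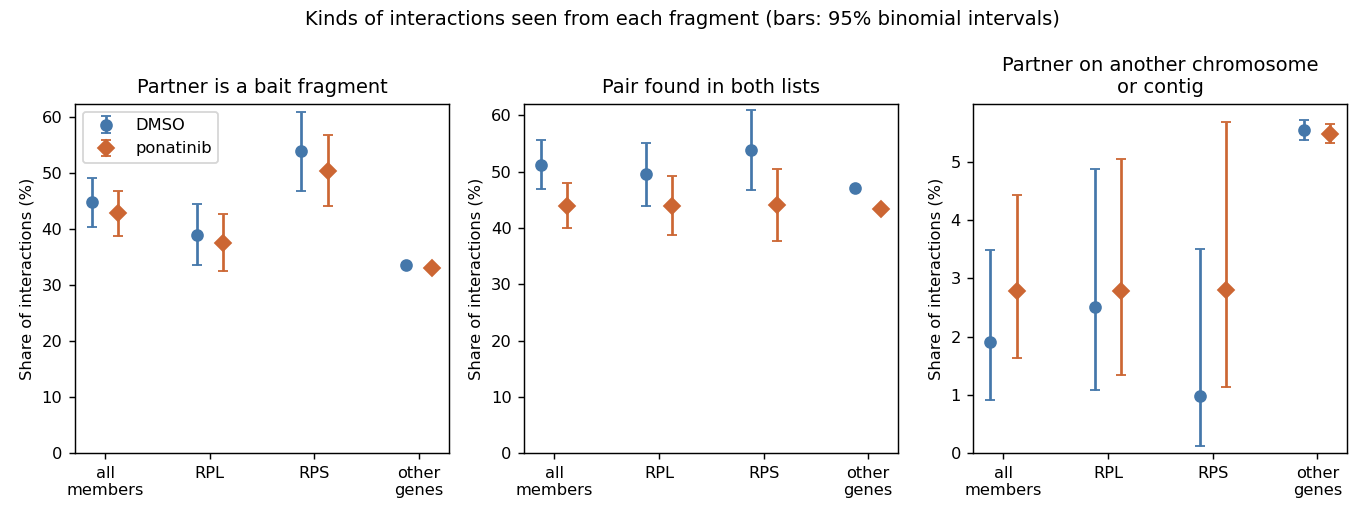
Share of interactions whose partner is a captured (bait) fragment, that are in both lists, or whose partner is on another chromosome or contig, in percent, for all member fragments, RPL and RPS fragments and fragments of other genes, with exact binomial 95% intervals as bars. Promoter partners are more frequent for members (44.7% and 42.8%) than for other genes (33.6% and 33.0%), and partners on other chromosomes less frequent (1.91% and 2.79% beside 5.54% and 5.48%). The other genes include ABL1, a gene of the fusion in K562.

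Partners on another chromosome or an alternate contig were rare. There were 10 in DMSO and 17 in ponatinib, or 1.91% and 2.79% seen from each fragment, beside 5.54% and 5.48% for other gene fragments. The differences were -3.63 points (-4.52 to -2.05) and -2.69 points (-3.75 to -1.06). The other gene fragments include those of ABL1 (217 interactions in DMSO and 256 in ponatinib), a gene of the fusion that K562 carries. Contacts across such a fusion are listed as contacts with another chromosome. Their part in these differences was not tested. Of the 26 such pairs, spread over 22 members, 1 was in both lists and 2 had a promoter partner. The pair in both lists joined RPL4 to an alternate contig of its own chromosome 15 (scores 8.75 and 8.52).

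Contacts of ribosomal protein genes were mostly within a megabase. Between fragment midpoints the median distance in DMSO was 199 kb (184 to 213). In ponatinib it was 209 kb (194 to 232). It was 195 and 198 kb for large and 213 and 249 kb for small subunit genes. The small subunit medians had wide intervals, 179 to 272 kb and 207 to 276 kb, which overlap each other. Seen from each fragment the members' medians of 198 and 208 kb lay below the 221 and 229 kb of other gene fragments, and the upper limit for members in ponatinib, 229 kb, reached that value.

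In these lists the subunits differed in how distances were spread. In DMSO 45.3% of same-chromosome small subunit interactions lay at 100 to 500 kb and 26.9% at 20 to 100 kb, while 67.4% of the large subunit interactions lay at 100 to 500 kb. In ponatinib the small subunit shares were 53.3% and 19.8%, and the large subunit share was 64.8%. For other gene fragments the share at 100 to 500 kb was 62.2% in DMSO and 61.7% in ponatinib. No intervals were computed for these shares, and how far they rest on single genes was not tested. Beyond 1000 kb there were 14 member interactions in DMSO (2.76%) and 13 in ponatinib (2.21%). Seen from each fragment, the members' share beyond 1000 kb differed from that of other gene fragments by -1.82 points (-2.93 to -0.0190) in DMSO and -2.93 points (-3.86 to -1.40) in ponatinib. The other gene fragments here too include those of the fused gene ABL1, whose part in this difference was not tested.

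**Figure D4:**
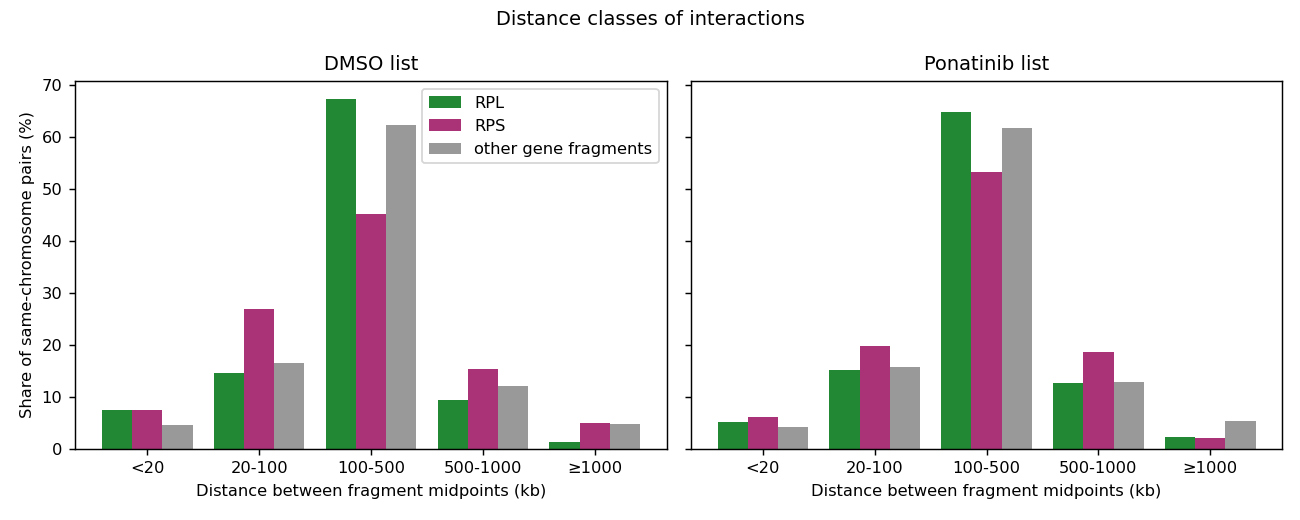
Share of same-chromosome interactions in 5 classes of midpoint distance (kb), for RPL genes, RPS genes and other gene fragments, DMSO list on the left and ponatinib list on the right. The 100 to 500 kb class holds 67.4% and 64.8% of RPL and 45.3% and 53.3% of RPS interactions.

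Scores are the authors' values and rank contacts within a list. The median for members was 6.52 (6.32 to 6.72) in DMSO and 6.79 (6.51 to 7.04) in ponatinib, beside 6.55 and 6.61 for other gene fragments seen from each fragment. At least 10 was reached by 84 member interactions in DMSO (16.2%) and 104 in ponatinib (17.2%). Interactions with promoter partners had median scores of 6.99 and 7.61, those with distal partners 6.16 and 6.30.

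The highest member score in DMSO, 28.82, joined RPL10A, a protein of the mobile stalk of the large subunit, to the promoter of the nuclear receptor gene PPARD 111 kb away. The same pair scored 27.94 in ponatinib. RPL35 and a distal fragment 88.1 kb away scored 26.05 in DMSO and 32.86 in ponatinib. RPL6 and a distal fragment 20.8 kb away scored 23.17 and 15.03. RPL4's 28.17 with the alternate contig was in the ponatinib list only. All of these pairs but RPL4's were in both lists. The fragment of RPL10A also holds an end of FANCE, and that of RPL35 ends of ARPC5L and WDR38. The fragment of RPL6 also holds an end of PTPN11. These contacts therefore cannot be assigned to the ribosomal protein gene alone.

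Identical fragment pairs in both lists numbered 263, which is 50.8% of the DMSO interactions (46.4 to 55.2) and 43.5% of the ponatinib interactions (39.5 to 47.5). When ends could differ by 5 kb, 79.3% and 69.4% had a counterpart. Seen from each fragment, sharing was 4.21 points (-0.0870 to 8.48) and 0.491 points (-3.41 to 4.47) above other gene fragments, and both intervals held 0. Shared pairs had higher scores: medians were 7.64 against 6.02 for unshared pairs in DMSO and 8.27 against 6.11 in ponatinib. Of the 263, 141 scored higher and 122 lower in ponatinib, beside 19949 higher and 17162 lower of 37194 shared pairs in the whole lists. No pair was shared for 11 members.

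Promoter partners were shared more often than distal ones. In DMSO 61.6% (54.9 to 67.9) of interactions with a promoter partner and 42.2% (36.5 to 48.1) of distal ones were in both lists, a difference of 19.4 points (10.7 to 27.6). From the ponatinib list the shares were 55.1% and 35.0%, a difference of 20.1 points (12.1 to 27.8). The higher scores of promoter partners, given above, move with this, and their part in it was not tested. Among small subunit genes the DMSO shares were 69.7% for promoter and 35.1% for distal partners, and among large subunit genes 55.3% and 45.6%. In the whole lists they were 55.4% and 41.6%, so a gap of this direction was not particular to ribosomal protein genes.

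RPL23A, a large subunit protein near the exit of the nascent chain, had the most interactions. The DMSO list held 47 and the ponatinib list 57, with 37 in both. They came from a pair of nearby fragments (chr17:28719810-28721593 and chr17:28722973-28728509), the second of which also holds an end of TLCD1. On the side of higher coordinates 40 and 49 were listed, 31 of them shared, against 7 and 8 on the other side. The strongest joined both fragments to SEZ6, with DMSO scores of 25.98 and 25.73 and ponatinib scores of 27.18 and 24.65. FLOT2 with DHRS13 (18.21 and 19.71) and DHRS13 with PHF12 (20.89 and 23.87), the latter a corepressor subunit gene, followed. Distal partners outnumbered promoter partners, 33 to 14 in DMSO and 42 to 15 in ponatinib.

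RPL41 encodes the shortest ribosomal protein and lies 68.6 kb from RPS26 by fragment midpoints. It had 22 and 27 interactions, 13 shared, on fragments that also hold ends of PA2G4 and ZC3H10. Promoter partners made up 19 and 23 of them. Both fragments contacted SMARCC2, a subunit of the BAF remodelling complex, with scores of 14.13 and 14.36 in DMSO and 11.63 and 20.52 in ponatinib. RNF41, NABP2, COQ10A and CS, the citrate synthase gene, followed among its partners.

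RPL4, whose protein lines the exit tunnel, had 20 and 24 interactions, 11 shared. On fragments with SNAPC5 and ZWILCH it had 18 pairs with DIS3L, an exosome nuclease gene 167 to 218 kb away, 13 in DMSO and 12 in ponatinib with 7 in both. The fragment of TIPIN and MAP2K1, the MEK1 gene, scored 10.35 and 11.37. All 11 shared pairs came from the fragment at the far end of the gene from its start (chr15:66495323-66499293). The fragment that holds the start had 5 and 8, none in both lists.

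RPL30 had 21 and 19 interactions, 10 shared, all on the side of lower coordinates and on a fragment with MATN2. Its partners lay in LAPTM4B (7 in DMSO and 5 in ponatinib), MTDH (6 and 5) and MATN2 (3 and 5), and all 4 of its promoter partners were in both lists. RPL27A had 15 and 17, 6 shared, with 5 and 6 in TMEM9B; its strongest pair, with the promoter end of TMEM9B, scored 20.75 in DMSO and 7.49 in ponatinib.

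RPL22, a large subunit protein whose gene is deleted in some T cell leukaemias, had 17 and 14 interactions, 10 shared. RPL28 had 14 and 14, 6 shared, and RPL14 14 and 10, 6 shared. RPL3, which reaches the peptidyl transferase centre, had 9 and 16, 6 shared. RPL3 contacted the promoter of the stress response factor ATF4 (9.98 and 13.41), and it had 1 and 4 pairs with CBX7, a Polycomb subunit gene. These 4 genes thus go in different directions by a few interactions each.

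RPL7 had 24 interactions in DMSO and 10 in ponatinib, 8 shared, on a fragment that also holds an end of RDH10 (chr8:73292383-73298482). Of its partners, 21 fragments lay in STAU2, a gene for an RNA-binding transport protein 157 to 457 kb away (chr8:73445464-73759777). Of these, 19 were listed in DMSO and 7 in ponatinib, 5 in both. Distal partners numbered 18 and 6, whereas promoter partners numbered 6 and 4, all 4 of them shared. The promoter end of STAU2 scored 6.37 in DMSO and 13.21 in ponatinib, ELOC with TMEM70 6.30 and 6.83, LY96 5.63 and 6.62, and JPH1 7.30 and 7.98. The lower number of RPL7 in ponatinib thus lay mostly in the body of STAU2. Scores were not normalised between the lists, and shared pairs of the whole lists had medians of 7.73 in DMSO and 8 in ponatinib. The scores of RPL7's shared promoter contacts therefore allow no comparison of the treatments.

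RPS26, a small subunit protein beside the messenger RNA exit channel, had 45 interactions in DMSO and 30 in ponatinib, 23 shared, on a fragment with no other gene's end (chr12:56041004-56044317). On its own chromosome promoter partners numbered 22 in each list, 17 shared, and distal partners 22 and 8, 6 shared. The DMSO list held 1 more distal partner, on another chromosome. On the side of lower coordinates it had 33 and 20, on the other side 11 and 10. Its strongest DMSO partners were PYM1 with DGKA (24.95, ponatinib 21.36) and SARNP with ORMDL2 (24.72 and 23.5). The fragment of RDH5, CD63 and GDF11 scored 6.29 in DMSO and 27.17 in ponatinib. As with RPL7, its lower number lay in distal partners; this likeness was noticed after the values were seen and was not tested.

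RPS27, a zinc finger protein of the small subunit, had 22 interactions in DMSO and 36 in ponatinib, 17 shared, on a fragment with ends of NUP210L and RAB13 (chr1:153984316-154001534). On its own chromosome promoter partners numbered 14 and 17, 13 shared, and distal ones 8 and 18, 4 shared. The ponatinib list held 1 more promoter partner, on another chromosome. On the side of lower coordinates 21 and 31 were listed, reaching 645 kb to the S100A gene cluster, calcium-binding proteins, where it had 4 and 5. NPR1, a natriuretic peptide receptor gene, scored 24.97 in DMSO and 15.82 in ponatinib. Its neighbour ILF2, a gene of an RNA-binding protein, scored 17.47 and 26.26. RPS27 was the opposite of RPS26 and RPL7 in the order of the lists, and in all of them the number of distal partners differed more than that of promoter partners.

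**Figure D5:**
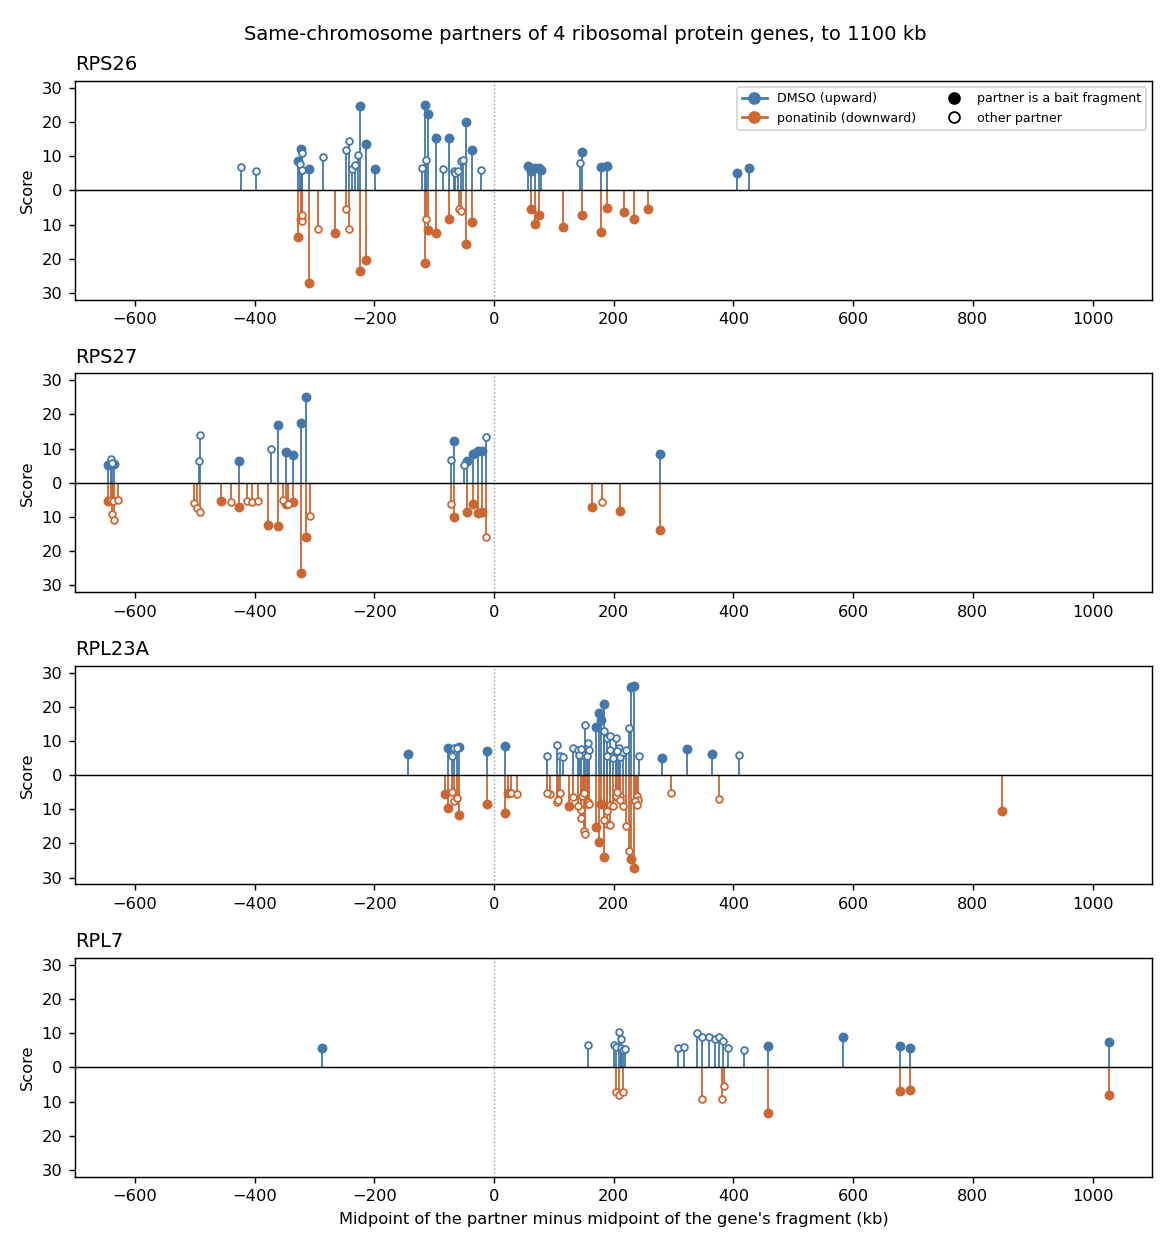
Same-chromosome partners of RPS26, RPS27, RPL23A and RPL7 by distance from the gene's fragment (kb, negative toward lower coordinates), with the score upward for DMSO and downward for ponatinib; filled points are captured partners, open points distal ones. Open points of RPL7 between 157 and 417 kb and of RPS26 on the left side are more frequent on the DMSO side of the axis, and those of RPS27 on the ponatinib side.

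RPS25, a small subunit protein needed for initiation at some viral entry sites, had 17 and 25 interactions, 10 shared. It lies on a pair of fragments with TRAPPC4, and 12 and 19 of its partners were promoters. MCAM, an adhesion molecule gene, scored 12.88 in the ponatinib list only. Pairs with CBL, a ubiquitin ligase gene, numbered 1 and 4, none shared.

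Several further members were named for their known roles after their values were seen. RPS6, the target of S6 kinase downstream of mTOR, had 10 and 11 interactions, of which 1 and 0 had a promoter partner. RPS14, whose loss underlies the anaemia of the 5q- syndrome, had 7 and 8. RPS19, the first gene linked to Diamond-Blackfan anaemia, had 7 and 10, 6 shared, and contacted CD79A with ARHGEF1 at 14.7 kb (20.49 and 27.06). RPS3 had 8 and 8, 6 shared, with 7 promoter partners in each list. RPS20 had 7 and 11, and contacted LYN, a SRC family kinase gene, in the ponatinib list only (8.99 and 11.53 from its neighbouring fragments). None of these passed a 2-fold difference in either direction.

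Contacts between members were few. There were 5 such pairs, 3 of them between a large and a small subunit gene, and all 5 were in both lists. RPS26 contacted both fragments of RPL41, at 68.6 kb (scores 6.67 and 9.80) and 75.4 kb (6.60 and 7.20). RPL3 contacted RPS19BP1, which is no ribosomal protein gene, at 203 kb (6.36 and 11.55). The other pairs joined the neighbouring fragments of RPS25 (10.9 and 14.38) and of RPL36A with its readthrough gene (9.22 and 7.92). All of them joined fragments of the same chromosome.

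Neighbouring members also had partners in common. RPS26 and RPL41 had 14 in common, 13 of them captured, among them SMARCC2, RNF41 with NABP2, and TIMELESS with MIP. RPL3 and RPS19BP1 had 2. These genes share their surroundings, so these counts describe the regions and not the individual promoters.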

How the data were processed

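Each library came as 1 deposited list, with a captured (bait) fragment, its partner and a score on each line; the score is the authors' own value of that contact. Coordinates are those of hg38, per the submitters' processing notes. Aligner, caller, what the score measures and how the lists were thresholded: not given in the sources used here. Scores were used to describe, rank and filter within a list and were not normalised between lists.

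An interaction was an unordered pair of fragments. The 20037 protein-coding genes of the RefSeq table of GRCh38.p14 were placed on each captured fragment that holds either end, so a fragment at the 3' end can count. A fragment shared by members counted once in sums over members and for each gene in counts by gene. A pair was shared when the identical fragments were in both lists, and a promoter partner was a fragment captured in either list. A 2-fold difference was taken from (ponatinib + 1)/(DMSO + 1) with at least 5 interactions over both lists. Shares have exact Clopper-Pearson intervals, differences of shares Newcombe intervals and medians order-statistic intervals, all at 95%; they treat interactions as independent. With 1 library per treatment there was no test. Differences from other genes in the share of promoter partners were counted from each fragment, a choice made after the data were seen.

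The members and the other gene lists were chosen with earlier results of these data known. Genes were named when given with the rule, when among the 12 with the most interactions, the 6 largest gains or the 6 largest losses in number, when past 2-fold, when at the 5 highest scores of a list or when in contact with another member; values of some genes are not reported here. Alternatives changed the score threshold, list length, gene placement, fragments, members, matching and pseudocount. Counting was tested on simulated data. Python 3.11.15, pandas 2.3.3, NumPy 2.4.6, SciPy 1.17.1 and matplotlib 3.10.9 were used.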

Additional observations from a re-analysis of the deposited data

How the results depend on the processing

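No paired analysis was possible because each treatment had 1 library, so the labels give no replicate numbers to pair. Of 150 alternatives to the results above, 117 kept the value within its counting interval (a count of genes within 1.5 times), and 33 moved it. The share in ponatinib, large minus small subunit, whose interval holds 0, turned from -2.06 to 2.67 points on fragments with no end of another gene and 0.687 points on fragments that hold the start. Scores of at least 7 gave a ratio of the numbers of 1.36 (large subunit genes 1.34), promoter partners of 55.1% in DMSO and 50.2% in ponatinib, sharing of 60.4% of the DMSO list, a median log2 ratio of 0.45 and 1 member with at least 2-fold fewer interactions. Scores of at least 10 gave promoter partners of 65.5% and 66.3%, median distances of 177 and 179 kb, sharing of 58.3% of the DMSO list, and 0 members past 2-fold in either direction of the 11 with enough interactions. Fragments with no end of another gene gave median distances of 182 and 190 kb, and those that hold the start 181 kb in DMSO and a median score of 6.50 in ponatinib. Ends matched within 5 kb gave sharing of 79.3% and 69.4%, within 10 kb 82.6% and 74.0%. A minimum of 10 interactions left 3 members with at least 2-fold more and 1 with at least 2-fold fewer.

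The alternatives for differences in promoter partners were chosen after the data were seen. Members minus other genes was 20.6 points in DMSO and 19.2 points in ponatinib with each pair counted once, 14.4 in ponatinib on fragments with no end of another gene, 16.2 in DMSO at scores of at least 7, and 23.5 and 26.8 at scores of at least 10. Large minus small subunit in ponatinib was -4.24 points on fragments that hold the start, -22.5 points at scores of at least 7 and -28.4 points at scores of at least 10. In DMSO at scores of at least 10 it was -11.8 points with an interval of -30.3 to 8.71, and on fragments with no other gene's end in ponatinib -11.0 points (-22.3 to 0.833). The cause of these moves was not tested. Depth is unknown, and the number of interactions limits precision.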

Other observations

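Gene lists of the same machinery outside the symbol rule had fewer members with a captured fragment and are described by counts. Of 7 further ribosomal proteins 5 had one: RPSA, a small subunit protein, had 5 interactions in DMSO and 9 in ponatinib, FAU 3 and 5, RACK1, the ribosome-bound scaffold, 1 and 2, and the stalk proteins RPLP0 4 and 4 and RPLP1 1 and 0. Their median log2 ratio was 0.58. Of 8 paralogs left out by the rule 6 had a captured fragment, with 2 more, 2 fewer and 2 equal and a median of 0.

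Mitochondrial ribosomal proteins, which serve the separate ribosome of that organelle, had a captured fragment for 57 of 77. Of these 29 had more, 22 fewer and 6 equal numbers with ponatinib. The median log2 ratio was 0.08, beside 0.24 (interval 0 to 0.42) for the 66 cytoplasmic genes. Of the 51 with at least 5 interactions, 5 had at least 2-fold more and 2 at least 2-fold fewer. Over all genes with at least 5, the shares were 9.92% and 6.26%, so these counts are not read as a result about this list. MRPL33 had 5 and 13 interactions, MRPS23 5 and 11, MRPL37 16 and 6 and MRPL35 9 and 1.

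Translation factors with oligopyrimidine messages had a captured fragment for 11 of 16, with 5 more, 4 fewer and 2 equal and a median of 0. HNRNPA1 had 7 and 18, NPM1, a nucleolar chaperone, 2 and 5, TPT1 5 and 2, and EEF2, an elongation factor, 19 and 16 with 11 shared. Ribosome assembly factors had one for 21 of 24, with 10 more, 7 fewer and 4 equal and a median of 0. NCL, the gene of the nucleolar protein nucleolin, had 25 and 23, 18 of them shared, FBL 6 and 7, and WDR12 14 and 6. The differences between these lists were not tested.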
